A study of Mus musculus with 89 samples.

Results

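The transcripts of 10 genes that build or regulate the contacts between mouse embryonic stem cells were followed, out of 26276 genes with a symbol in the count table. They were chosen by name from the symbols of that table, as the cadherins Cdh1 and Cdh2, the catenins Ctnnb1, Jup, Ctnna1 and Ctnnd1, the surface glycoprotein gene Epcam, and the claudins Cldn4, Cldn6 and Cldn7. Cadherins bind the same cadherin on the next cell. Inside the cell β-catenin or its relative plakoglobin holds the cadherin tail, α-catenin links that complex to actin, and p120-catenin keeps the cadherin at the membrane. E-cadherin holds the compact colonies of naive stem cells together, Epcam marks undifferentiated stem cells, and claudins form the strands of tight junctions.

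The cells were V6.5, an established male line of mouse embryonic stem cells, cultured in 2i + LIF. Its inhibitors of MEK and GSK3 keep such cells naive. In the cells of all 6 RNA-seq libraries H2afz, the gene of the histone variant H2A.Z.1, carried an FKBP-V tag. The 3 dTAG libraries came from cells given the dTAG molecule, through which a protein with this tag is sent for degradation, and the 3 control libraries came from cells with the same tag labelled as control. How long the RNA samples were treated, and with what the controls were treated, is not given in the sources used here, and the other 83 of the 89 samples of the series are not analysed here. GSK3 inhibitors such as that of this medium keep β-catenin protein from being degraded. Protein is not among the values used here, so transcript counts do not give its level in either group.

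The libraries differed in depth and content, which bears on every value below. dTAG replicates 1, 2 and 3 held 13214351, 2284068 and 2121183 counts, against 14427884 to 16033011 in the controls. Olfactory and vomeronasal receptor genes, which stem cells do not use, had a count in 23.5%, 71.5% and 96.99% of 1462 genes in dTAG replicates 1, 2 and 3, against 10.9% to 18.2% in the controls. The transcript of the tagged gene H2afz stood at 107, 56.3 and 35.9 CPM in dTAG replicates 1, 2 and 3, against 85.5 ± 9.0 CPM in the controls (SD, n = 3). CPM are counts per 1000000 counts in genes with a symbol. The dTAG molecule acts on protein, so this transcript does not check the labels. dTAG replicates 2 and 3 thus stood apart from the other 4 libraries, and each comparison below is given over all 6 libraries and for dTAG replicate 1 against the controls.

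The adhesion genes together took 0.139%, 0.108% and 0.0523% of the counts in dTAG replicates 1, 2 and 3, against 0.139% ± 0.00629 in the controls (SD, n = 3). dTAG replicate 1 was level with the controls, dTAG replicate 2 was lower and dTAG replicate 3 lower still. In dTAG replicate 1, 5 of the 10 genes lay within the range of the 3 controls, 3 lay below it (Cdh1, Ctnnd1 and Cldn4) and 2 above it (Epcam and Cldn6). Of all 18116 genes tested, 16.9% lay below and 34.2% above the controls in that library. In dTAG replicate 2, 7 of the 10 lay below and 3 above, with 22.4% and 63.4% of all tested genes. In dTAG replicate 3, 5 lay below and 5 above, with 22.4% and 72.3% of all tested genes. More of the adhesion genes than of all genes thus lay below the controls in each of these libraries, as counts with no test. Genes of like control level were not compared, so this is not shown to be particular to adhesion genes. In dTAG replicate 1 some placements were narrow, with Cdh1 at 303.6 CPM against 305.2 CPM in the lowest control and Ctnnd1 at 129.076 CPM against 129.083 CPM. The genes that lay low in both shallow libraries were Cdh1, Epcam, Ctnnb1, Ctnna1 and Ctnnd1, and those that lay high in both were Cdh2, Jup and Cldn7.

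**Figure D1:**
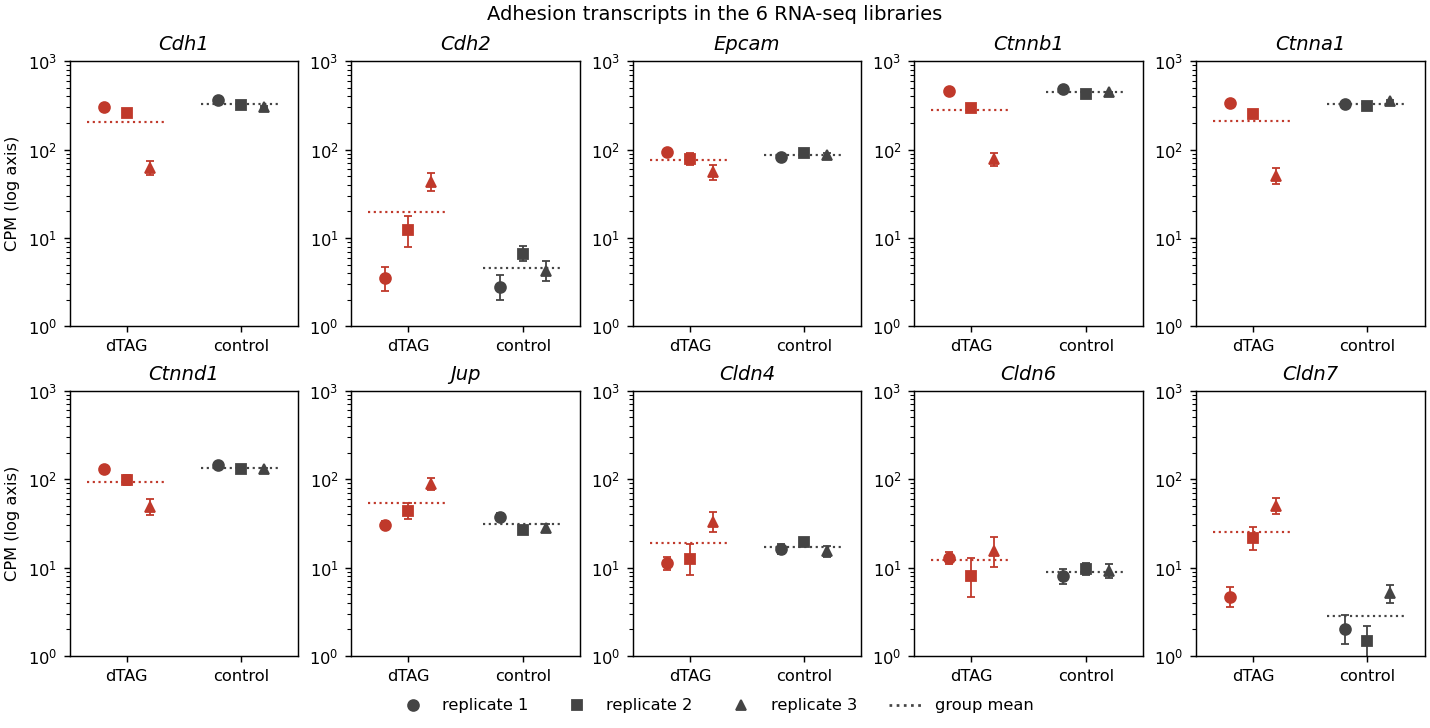
CPM of each adhesion gene (log axis) in dTAG libraries (red) and control libraries (grey); symbols are replicates 1, 2 and 3, bars are exact Poisson 95% intervals of the counts, and dotted lines are group means. dTAG replicate 3 is the lowest library for Cdh1 (61.8 CPM) and Ctnnb1 (77.8 CPM) and the highest for Cdh2 (43.0 CPM) and Cldn7 (49.7 CPM), whereas dTAG replicate 1 lies near the controls.

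Cdh1 encodes E-cadherin, the main classical cadherin of naive stem cells, and lies on chromosome 8 (GRCm38.p6). It stood at 304, 256 and 61.8 CPM in dTAG replicates 1, 2 and 3, against 360.0, 316 and 305 CPM in control replicates 1, 2 and 3. All 3 dTAG libraries lay below all 3 controls, a pattern that 3.22% of all tested genes shared (23.9% had all dTAG libraries above all controls), but dTAG replicate 1 missed the lowest control by under 2 CPM. In dTAG replicate 3 the level was 0.189 of the control mean. Over all 6 libraries the log2 fold change of Cdh1 was -1.05 (SE 0.97, adjusted p = 0.481, edgeR's quasi-likelihood test with Benjamini-Hochberg adjustment). It was -2.07 without dTAG replicate 1 and -0.54 without dTAG replicate 3. dTAG replicate 1 against the controls gave a log2 fold change of -0.19 (95% interval -0.41 to 0.03, edgeR adjusted p = 0.951), which is a fold of 0.877 (0.753 to 1.02).

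Cdh2 encodes N-cadherin, the cadherin that replaces E-cadherin when epiblast cells turn to mesoderm or neural fates, and lies on chromosome 18. It had 3.49, 12.2 and 43.0 CPM in dTAG replicates 1, 2 and 3, against 2.81, 6.64 and 4.26 CPM in control replicates 1, 2 and 3. dTAG replicate 1 fell among the controls and the other dTAG libraries lay above them. These levels rest on 45, 26 and 78 counts in the dTAG libraries, against 40, 104 and 60 in the controls. The log2 fold change was 0.85 over all 6 libraries (SE 0.68, edgeR adjusted p = 0.446) and -0.49 for dTAG replicate 1 (95% interval -1.83 to 0.85, edgeR adjusted p = 0.991). The first value was 2.18 with library totals, 0.33 without control replicate 1 and 0.22 without dTAG replicate 3.

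The balance of both cadherins within a library does not rest on how libraries are scaled. Counts of Cdh2 were 1.15%, 4.76% and 69.6% of those of Cdh1 in dTAG replicates 1, 2 and 3, against 0.780%, 2.10% and 1.40% in the controls. The higher values stand in dTAG replicates 2 and 3, and dTAG replicate 1 lies among the controls. The log2 ratio differed by 2.46 between the group means (two-sided exact permutation test, p = 0.3, 0.45 after Benjamini-Hochberg adjustment over 3 ratios), in a design of 3 against 3 whose smallest p is 0.1. Without dTAG replicate 3 the difference was 0.83 (exact permutation p = 0.5).

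Ctnnb1 encodes β-catenin, the armadillo protein that binds the cadherin tail and also carries the Wnt signal to the nucleus. It lies on chromosome 9. Ctnnb1 stood at 462, 296 and 77.8 CPM in dTAG replicates 1, 2 and 3, against 486, 429.8 and 442 CPM in control replicates 1, 2 and 3. dTAG replicate 1 fell among the controls, and the other dTAG libraries lay below all of them. Ctnna1, on chromosome 18, encodes αE-catenin, which ties β-catenin to actin, and had 338, 250.04 and 50.2 CPM in the dTAG libraries, against 326, 312 and 351 CPM in the controls. The placement was that of Ctnnb1. The counts of Ctnna1 were 73.2%, 84.3% and 64.5% of those of Ctnnb1 in dTAG replicates 1, 2 and 3, against 67.1%, 72.6% and 79.4% in the controls. The mean log2 ratios of these partners differed by 0.013 (two-sided exact permutation test, p = 0.9, also after adjustment over 3 ratios), against SDs of 0.19 among dTAG libraries and 0.12 among controls (n = 3 each). The span of Ctnna1 overlaps Lrrtm2, which had 2.09, 25.3 and 40.8 CPM in the dTAG libraries, against 0 to 1.21 CPM in the controls; whether counting used the strand is not given in the sources used here.

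Ctnnd1 encodes p120-catenin, which binds the cadherin next to the membrane and slows its uptake into the cell. It lies on chromosome 2 and had 129.076, 98.0 and 49.1 CPM in dTAG replicates 1, 2 and 3, against 145, 130.4 and 129.083 CPM in control replicates 1, 2 and 3. All dTAG libraries lay below all controls, but dTAG replicate 1 and control replicate 3 were level within counting error. Jup encodes plakoglobin, the close relative of β-catenin that serves in desmosomes as well as adherens junctions, and lies on chromosome 11. It had 30.3, 44.1 and 87.7 CPM in the dTAG libraries, against 37.7, 26.8 and 28.2 CPM in the controls, so that dTAG replicate 1 fell among the controls and the other dTAG libraries lay above them. Counts of Jup were 6.55%, 14.9% and 113% of those of Ctnnb1 in the dTAG libraries, against 7.76%, 6.23% and 6.38% in the controls. The difference of 1.72 in mean log2 ratio (two-sided exact permutation test, p = 0.2, 0.45 after adjustment) was 0.55 without dTAG replicate 3 (exact permutation p = 0.2).

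For the catenins the log2 fold changes over all 6 libraries were -1.04 for Ctnnb1, -0.98 for Ctnna1 and -0.996 for Ctnnd1, each with an SE of 0.74 or more and an edgeR adjusted p between 0.428 and 0.507. Without dTAG replicate 1 these values were -2.32, -2.15 and -2.03, and without dTAG replicate 3 they were -0.53, -0.46 and -0.55. Jup gave -0.10 (SE 0.31, edgeR adjusted p = 0.814). The same genes in dTAG replicate 1 gave -0.05, -0.05, -0.15 and -0.11 against the controls, with edgeR adjusted p between 0.985 and 0.998. The 95% intervals of dTAG replicate 1 were -0.25 to 0.15 for Ctnnb1, -0.26 to 0.17 for Ctnna1, -0.43 to 0.14 for Ctnnd1 and -0.61 to 0.40 for Jup. Each of these intervals lies within a 2-fold change in either direction, and so do those of Cdh1 and Epcam.

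**Figure D2:**
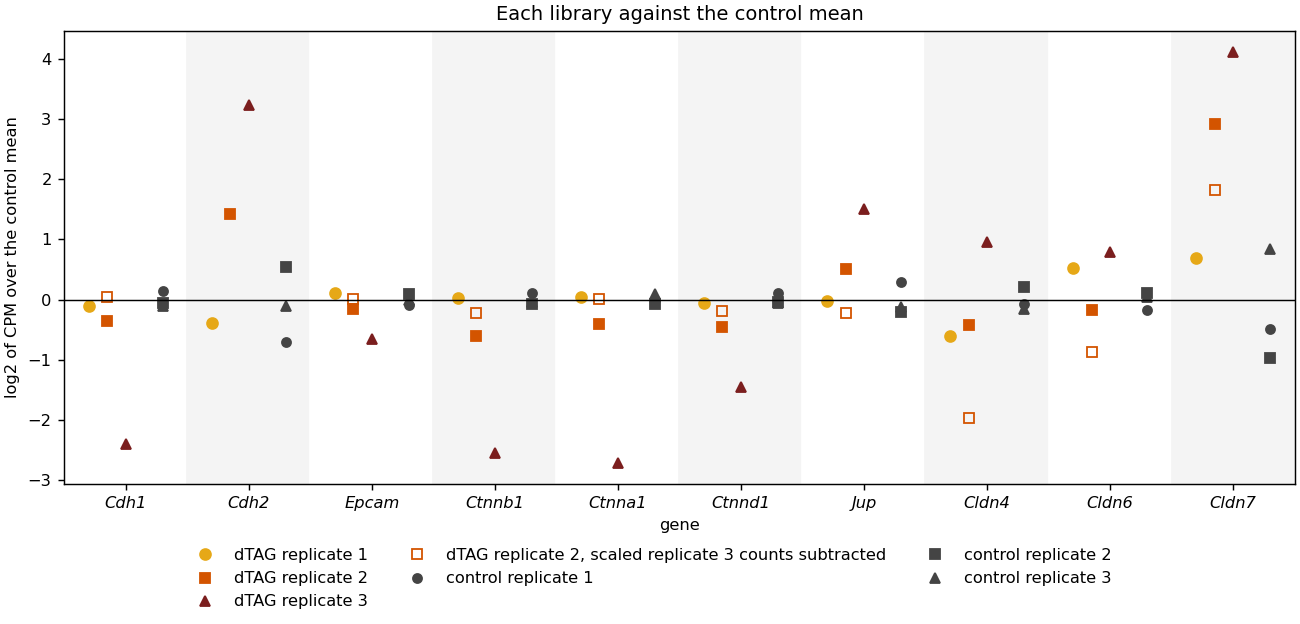
log2 of the CPM of each library over the control mean, for each adhesion gene; filled coloured symbols are dTAG replicates, grey symbols are control replicates, and open squares are dTAG replicate 2 after scaled dTAG replicate 3 counts were subtracted (no open square for Cdh2, whose remainder was below 0). dTAG replicate 3 ranges from 0.152 of the control mean for Ctnna1 to 17.3 times it for Cldn7.

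Epcam encodes the epithelial cell adhesion molecule, a homophilic surface glycoprotein that is high in undifferentiated stem cells. It lies on chromosome 17 from 87635979 to 87651127 (GRCm38.p6). Epcam had 93.3, 77.9 and 55.2 CPM in dTAG replicates 1, 2 and 3, against 81.4, 92.1 and 86.2 CPM in control replicates 1, 2 and 3. dTAG replicate 1 lay above the controls, though level with control replicate 2 within counting error, and the other dTAG libraries lay below. In dTAG replicate 3 Epcam kept 0.638 of its control mean, a smaller drop than for Cdh1 or Ctnnb1. The log2 fold change was -0.72 over all 6 libraries (SE 0.61, edgeR adjusted p = 0.462; -0.33 without dTAG replicate 3) and 0.02 in dTAG replicate 1 (95% interval -0.31 to 0.35, edgeR adjusted p = 0.999).

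Cldn4, Cldn6 and Cldn7 encode claudins, tight junction proteins with 4 membrane spans, and Cldn7 binds the EpCAM protein directly. They are low in these libraries, so counting error is larger. Cldn4, on chromosome 5 from 134945123 to 134946934, had 11.2, 12.7 and 33.1 CPM in dTAG replicates 1, 2 and 3, against 16.1, 19.5 and 15.3 CPM in control replicates 1, 2 and 3. dTAG replicates 1 and 2 lay below the controls and dTAG replicate 3 above them. The 145 counts of dTAG replicate 1 gave an exact Poisson 95% interval of 9.48 to 13.2 CPM, under the lowest bound of 13.4 CPM among the controls; such intervals cover counting error only. Its log2 fold change was -0.78 over all 6 libraries (SE 0.35, edgeR adjusted p = 0.231) and -0.69 in dTAG replicate 1 (95% interval -1.40 to 0.03). Both fits hold dTAG replicate 1 and the same controls, so they are not separate evidence. With library totals the value over all 6 libraries was 0.23.

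Cldn6, a claudin typical of pluripotent cells, lies on chromosome 17 from 23679348 to 23682446. It had 12.9, 7.98 and 15.4 CPM in dTAG replicates 1, 2 and 3, against 8.00, 9.71 and 9.23 CPM in control replicates 1, 2 and 3, so that dTAG replicates 1 and 3 lay above the controls and dTAG replicate 2 just below. The log2 fold change was -0.24 over all 6 libraries (SE 0.52, edgeR adjusted p = 0.732; -1.11 without dTAG replicate 1 and -0.03 without dTAG replicate 3) and 0.43 in dTAG replicate 1 (95% interval -0.38 to 1.24, edgeR adjusted p = 0.985). The nearest gene, 138 bases away, is the claudin gene Cldn9, with 2.17, 10.8 and 32.6 CPM in the dTAG libraries, against 0.983, 0.894 and 1.70 CPM in the controls.

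Cldn7, on chromosome 11 from 69964779 to 69967886, had 4.65, 21.6 and 49.7 CPM in dTAG replicates 1, 2 and 3, against 2.04, 1.47 and 5.11 CPM in control replicates 1, 2 and 3. dTAG replicate 1 lay under the highest control, and the others lay above all controls. The controls themselves differed 3.48-fold between the lowest and the highest, on 23 to 72 counts. Over all 6 libraries its log2 fold change was 1.98 (SE 0.73, unadjusted p = 0.026, edgeR adjusted p = 0.152), and in dTAG replicate 1 it was 0.61 (95% interval -0.90 to 2.12, edgeR adjusted p = 0.988). Among the 10 genes Cldn7 alone had an unadjusted p under 0.05 over all 6 libraries.

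H2A.Z sits in the nucleosomes beside transcription starts, so promoter letters are shown for the 4 adhesion genes with an E-box there and, for contrast, for Ctnnb1, which has none. They are the 250 bases before the start in RefSeq (GRCm38.p6), 5′ to 3′ on the gene's strand. Capitals mark the E-box CAGGTG or its reverse complement CACCTG, the motif that repressors of the Snail and Zeb families bind; both strands were searched and the pair are the same site read on either strand. For Cldn7 the window of the second listed start is given. That window lies inside the gene span given above, and the window of Cldn6 runs past the first base of its span. The windows are chr17:87635729-87635978 (plus strand) for Epcam, chr5:134946935-134947184 (minus strand) for Cldn4, chr17:23679115-23679364 (plus strand) for Cldn6, chr11:69965171-69965420 (plus strand) for Cldn7 and chr9:120933150-120933399 (plus strand) for Ctnnb1.
Epcam: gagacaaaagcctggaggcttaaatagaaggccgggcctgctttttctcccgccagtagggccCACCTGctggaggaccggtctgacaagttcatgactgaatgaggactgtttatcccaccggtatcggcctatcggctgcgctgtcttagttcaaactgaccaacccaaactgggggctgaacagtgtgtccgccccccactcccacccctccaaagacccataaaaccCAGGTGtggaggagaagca
Cldn4: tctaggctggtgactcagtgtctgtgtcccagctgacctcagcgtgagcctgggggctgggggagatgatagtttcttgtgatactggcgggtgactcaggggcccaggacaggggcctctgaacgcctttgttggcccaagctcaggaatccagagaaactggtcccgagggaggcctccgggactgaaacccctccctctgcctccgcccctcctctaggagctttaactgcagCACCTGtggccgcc
Cldn6: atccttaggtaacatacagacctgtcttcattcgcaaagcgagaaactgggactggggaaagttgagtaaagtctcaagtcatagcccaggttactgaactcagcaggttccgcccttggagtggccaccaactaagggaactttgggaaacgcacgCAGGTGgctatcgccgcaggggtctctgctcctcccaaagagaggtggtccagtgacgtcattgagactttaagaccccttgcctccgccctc
Cldn7: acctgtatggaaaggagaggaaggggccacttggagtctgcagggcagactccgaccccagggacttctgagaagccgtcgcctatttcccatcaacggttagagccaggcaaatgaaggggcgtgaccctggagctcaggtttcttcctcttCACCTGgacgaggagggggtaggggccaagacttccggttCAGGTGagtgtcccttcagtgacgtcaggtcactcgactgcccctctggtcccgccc
Ctnnb1: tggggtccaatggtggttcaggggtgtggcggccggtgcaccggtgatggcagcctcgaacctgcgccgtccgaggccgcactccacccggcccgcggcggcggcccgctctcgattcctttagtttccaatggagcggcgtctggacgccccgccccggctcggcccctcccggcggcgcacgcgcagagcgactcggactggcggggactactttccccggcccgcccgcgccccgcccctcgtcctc

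Of 7 adhesion genes with a promoter entry, 4 held an E-box in at least 1 of their windows, and these were Epcam, Cldn4, Cldn6 and Cldn7. Counted by window, 4 of their 10 windows held one, and that of the other listed start of Cldn7 held none. The catenin genes Ctnnb1, Ctnnd1 and Jup had none in these windows, and Cdh1, Cdh2 and Ctnna1 had no entry. Counting from the first base of the motif, the boxes lay 187 and 19 bases before the start in Epcam, 14 in Cldn4, 93 in Cldn6, and 97 and 57 in Cldn7. Of 32841 windows of the same length, 17.2% held at least 1 E-box and 2.06% held 2 or more. The window of Ctnnb1 was richest in G and C of those shown, at 74.8%, with CpG pairs at 1.01 of the number its base composition gives. The CpG ratio was 0.405 in Epcam, 0.291 in Cldn4, 0.501 in Cldn6 and 0.446 in Cldn7, and the median of all windows was 0.374. A match is a description of the letters and not a measured binding site.

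Over all 6 libraries 0 of the 10 genes were called at an edgeR adjusted p under 0.05, and 0% of all 18116 tested genes were. All 10 passed the filter on low counts. Unadjusted, 1 of the 10 and 23.2% of all genes had a p under 0.05, and limma-voom called 0 of the 10 and 0% of all genes. DESeq2, without the filter on low counts, called 0 of the 10 and 21.5% of 23658 genes. The median log2 fold change of the 10 was -0.75, and that of all tested genes 0.16. With library totals in place of TMM scaling these medians were 0.042 and 1.20, and Jup, Cldn4 and Cldn6 turned to 0.88, 0.23 and 0.49. Without dTAG replicate 1 edgeR called 4 of the 10, with Cldn7 higher (log2 fold change 2.08, adjusted p = 0.0097) and Epcam (-1.62, adjusted p = 0.044), Ctnnd1 (-2.03, adjusted p = 0.041) and Cldn4 (-1.13, adjusted p = 0.014) lower. That fit called 59.8% of 22093 genes tested, 40.0% higher and 19.8% lower, and rests on the 2 libraries with counts in most receptor genes. In CPM, Cldn4 lay below the controls in dTAG replicate 2 (12.7 CPM) but above them in dTAG replicate 3 (33.1 CPM). The controls had 15.3 to 19.5 CPM, so its call as lower depends on how libraries were scaled. Library totals were not tried in that fit. TMM factors over all 6 libraries, which multiply library totals, were 1.23 and 2.49 in dTAG replicates 2 and 3. They were 0.774 in dTAG replicate 1 and 0.727 to 0.789 in the controls.

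With dTAG replicate 1 alone set against the controls, 0 of the 10 genes were called, and 0.0882% of all 18143 tested genes were (16 genes, edgeR adjusted p under 0.05), 0.0606% higher and 0.0276% lower. The unadjusted count was 0 of 10, against 5.74% of all genes, and 0 of the 10 were called by DESeq2, with 0.110% of all genes, or by limma-voom, with 0.0276%. The median log2 fold change of the 10 was -0.078, against -0.016 for all genes. For 6 of the 10 the 95% interval excluded a 2-fold change in either direction, and for Cdh2, Cldn4, Cldn6 and Cldn7 it did not. This fit assumes that the lone dTAG library varies as controls do. A p that misses the threshold does not show that levels were the same. The labels do not say whether each library had its own culture, so the p-values reflect a spread among 6 samples that may be technical in part. In such bulk samples fewer cells of a type and less RNA per cell cannot be told apart.

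**Figure D3:**
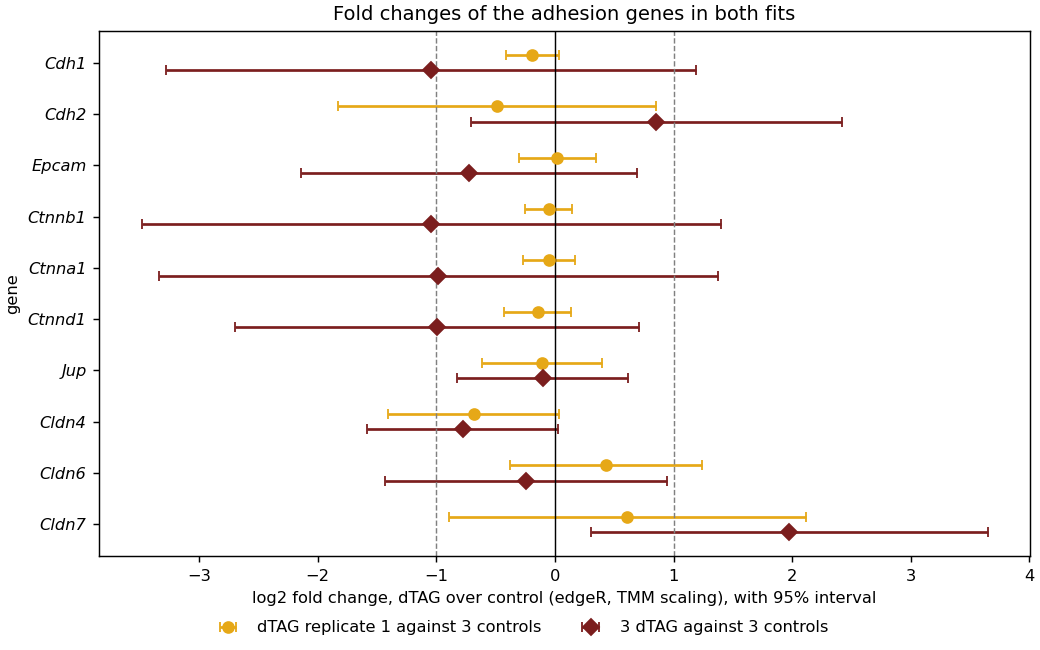
log2 fold change of each adhesion gene, dTAG over control, with its 95% interval (edgeR, TMM scaling), for dTAG replicate 1 against 3 controls (yellow circles) and for 3 dTAG against 3 controls (dark red diamonds); dashed lines mark 2-fold changes. Intervals of dTAG replicate 1 are short for Cdh1, Ctnnb1 and Ctnna1, whose intervals over all 6 libraries run from -3.28 to 1.19, from -3.48 to 1.40 and from -3.34 to 1.37.

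The mix of adhesion counts changed with the library as well as their sum. Counts are not corrected for transcript length, so shares are compared only for the same gene across libraries. Shares add up to the whole, so a drop in some raises the others, and a larger share need not be a higher level. Ctnnb1 gave 33.3%, 27.5% and 14.9% of the 10 genes' counts in dTAG replicates 1, 2 and 3, against 32.4% ± 0.65 in the controls (SD, n = 3). Cdh1 gave 21.9%, 23.8% and 11.8%, against 23.4% ± 1.2. Ctnna1 gave 24.4%, 23.2% and 9.60%, against 23.7% ± 1.7. Cdh1 and Ctnna1 stood near their control shares in dTAG replicates 1 and 2, the share of Ctnnb1 was lower in dTAG replicate 2, and all 3 were far lower in dTAG replicate 3. Ctnnd1 held 9.29%, 9.10% and 9.39% in the dTAG libraries, against 9.67% ± 0.26, so its share moved little in any library. The other 6 genes held larger shares in dTAG replicate 3 than in any control. The farthest from their control shares were Jup, with 2.18%, 4.09% and 16.8% in the dTAG libraries, against 2.20% ± 0.32, Cldn7, with 0.335%, 2.00% and 9.49%, against 0.207% ± 0.14, and Cdh2, with 0.251%, 1.13% and 8.23%, against 0.332% ± 0.15. Cldn4 had 0.809%, 1.18% and 6.33% in the dTAG libraries, against 1.22% ± 0.20, Epcam 6.71%, 7.23% and 10.5%, against 6.22% ± 0.65, and Cldn6 0.926%, 0.740% and 2.95%, against 0.646% ± 0.091. The share of Epcam was larger in dTAG replicate 3 although its CPM there was 0.638 of its control mean. In dTAG replicate 3 the 10 genes together held 948 counts, and the Wilson 95% interval was 14.5% to 19.3% for the share of Jup.

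**Figure D4:**
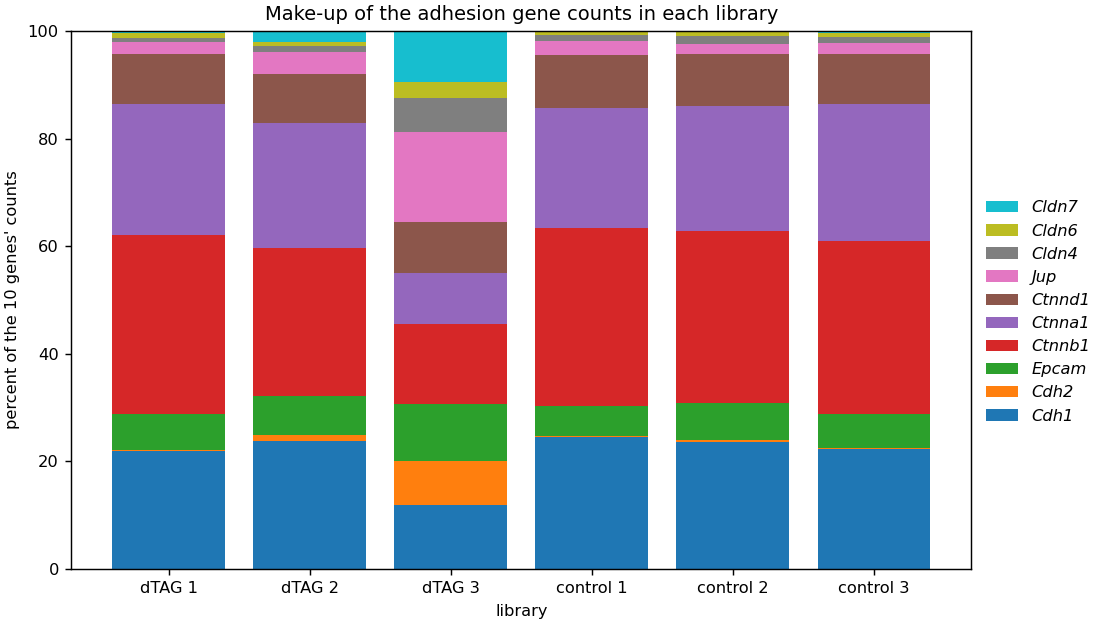
Share of each gene in the counts of the 10 adhesion genes (percent, stacked to 100), in dTAG replicates 1 to 3 and control replicates 1 to 3. dTAG replicate 1 and the controls look alike, while in dTAG replicate 3 Jup (16.8%), Cldn7 (9.49%) and Cdh2 (8.23%) take much larger shares.

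Receptor gene counts were then used to ask how much of each adhesion gene's count in dTAG replicate 2 the content of dTAG replicate 3 would give, a step chosen with earlier results of these data known. Receptor counts of dTAG replicate 2 beyond the control share were 0.340 of the receptor counts of dTAG replicate 3. That factor, applied to all counts of dTAG replicate 3, would amount to 28.9% of dTAG replicate 2. Whether these libraries share content was not tested. On that scale dTAG replicate 3 gave 6.98% of the Cdh1 count of dTAG replicate 2, 7.59% of that of Ctnnb1, 5.81% of Ctnna1, 14.5% of Ctnnd1 and 20.5% of Epcam. It gave 56.0% of Cldn6, 57.5% of Jup, 66.5% of Cldn7, 75.6% of Cldn4 and 102% of Cdh2. These shares follow from the level of each gene in dTAG replicate 3 relative to dTAG replicate 2. After subtraction, over the remaining counts, dTAG replicate 2 stood at 335 CPM for Cdh1, 87.1 CPM for Epcam and 331 CPM for Ctnna1, all within the range of the controls. Ctnnb1 at 385 CPM, Ctnnd1 at 118 CPM, Cldn4 at 4.35 CPM and Cldn6 at 4.93 CPM lay below it, as before the subtraction, and Cldn7 at 10.2 CPM lay above it, as before. Jup, which lay above the controls before, lay just below them at 26.3 CPM, and nothing was left of Cdh2. These remainders carry no interval and can rest on few counts. They are 26 counts less 26.5 for Cdh2, 27 less 20.4 for Cldn4 and 17 less 9.52 for Cldn6. Their places against the controls are thus uncertain. The step also takes all of dTAG replicate 3 as added content, although naive stem cell markers summed to 591 CPM there. For dTAG replicate 1 the same step gave a factor of 0.0937, which would amount to 1.32% of that library. That gave 16.2% of the Cdh2 count and 14.1% of the Cldn7 count there, and under 4% for each of the other 8 genes. After it Cdh1, at 307 CPM, and Ctnnd1, at 130.1 CPM, lay within the range of the controls in dTAG replicate 1. These were small shifts, from 303.6 and 129.076 CPM. That left 1 gene below (Cldn4) and 2 above (Epcam and Cldn6). Mitochondrial ribosomal RNA took 6.94%, 4.94% and 0.165% of the counts in dTAG replicates 1, 2 and 3, against 6.97% ± 0.14 in the controls (SD, n = 3). It was low in the same libraries as Cdh1 and the catenin genes Ctnnb1 and Ctnna1, and its part in their levels was not tested.

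Defining markers of the labelled cell type were present in every library. The 10 naive stem cell markers summed to 3072, 1864 and 591 CPM in dTAG replicates 1, 2 and 3, against 2844 to 3013 CPM in the controls, and none was at 0 in any library. Their sum was lower in dTAG replicates 2 and 3 than in any control, as were Cdh1 and Ctnnb1, and its part in those levels was not tested. The 14 fibroblast and feeder markers summed to 1371, 1159 and 716 CPM in the dTAG libraries, against 1310 to 1456 CPM in the controls. Fn1, also made by stem cells, held 1270 CPM of this sum in dTAG replicate 1 but 122 CPM in dTAG replicate 3. Without Fn1 the other 13 summed to 102, 237 and 594 CPM in the dTAG libraries, against 68.7 to 99.5 CPM in the controls; Col3a1 and S100a4 were at 0 in all controls and in dTAG replicate 1. The 11 neuroectoderm and mesoderm markers summed to 79.2, 364 and 915 CPM in the dTAG libraries, against 58.8 to 70.7 CPM in the controls, with none at 0 in all controls. The 11 primitive endoderm markers gave 307, 370.1 and 721 CPM, against 259 to 301 CPM. The 10 trophoblast markers gave 141, 186 and 358 CPM, against 114 to 143 CPM, with Tpbpa at 0 in all controls and in dTAG replicate 1. The sums of these 3 lineage lists, and that of the feeder markers without Fn1, were higher in dTAG replicates 2 and 3 than in any control. So were Cdh2, Jup and Cldn7, and 63.4% and 72.3% of all tested genes in dTAG replicates 2 and 3. In dTAG replicate 1 these sums also lay above every control, apart from that of the trophoblast markers. Single markers could differ from their sum, such as Sparc (74.1 and 30.9 CPM in dTAG replicates 2 and 3, against 110 to 124 CPM in the controls). Krt8 stayed within the control range in both libraries. The part of these lists in the levels of Cdh2, Jup and Cldn7 was not tested.

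By likeness of pattern over the 6 libraries, Cdh1, Ctnnb1 and Ctnna1 lay close together and the other adhesion genes lay farther apart. The measure was the root mean square difference of log2(CPM + 1), each gene centred on its own control mean. Ctnnb1 and Ctnna1 were the closest pair among the 10 (0.13), followed by Cdh1 with Ctnnb1 (0.14) and Cdh1 with Ctnna1 (0.17). Epcam was closest to Ctnnd1 (0.37) and Cldn4 to Cldn6 (0.45). Cdh2 came no closer than 0.84 to any of them (Jup), and Cldn7 no closer than 0.92 (Cdh2). Among 8214 genes whose control mean was at least 10 CPM, those closest to Cdh1 were Polr2a (0.048), Snord55 (0.048) and Usp9x (0.060), and 486 genes lay within 0.25 of it. Those closest to Ctnnb1 were Amd1 (0.015), Sfr1 (0.024) and Matr3 (0.028), with 496 genes within 0.25. Those closest to Epcam were Cdk5rap2 (0.025), Impa1 (0.038) and Polr2f (0.049), with 1091 genes within 0.25. Cldn6 had Pnma5 (0.080), Pank3 (0.089) and Nt5dc3 (0.090), with 306 genes within 0.25. Each pattern was thus shared by many other genes. For Cdh1, Ctnnb1 and Epcam dTAG replicate 3 lay farthest from the control mean, at a log2 of -2.40, -2.54 and -0.65. For Cldn6 dTAG replicate 1 (0.52) departed as well as dTAG replicate 3 (0.78).

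The wider set of junction genes was read from 7 lists, whose 120 genes in the table gave 113 tested genes in either fit. None of the 113 was called in dTAG replicate 1 or over all 6 libraries (edgeR adjusted p under 0.05). Their median log2 fold change in dTAG replicate 1 was -0.05, against -0.016 for all genes, and 8 of them, or 7.08%, had an unadjusted p under 0.05, against 5.74% of all genes. Over all 6 libraries 23 of the 113, or 20.4%, had one, against 23.2% of all genes, and the median was -0.04, against 0.16 for all genes. The medians of the lists in dTAG replicate 1 ran from -0.14 for genes of β-catenin destruction and its nuclear partners (15 genes) to 0.083 for epithelial regulators (11 genes).

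Of adherens junction genes, 25 were tested, with a median log2 fold change of -0.039 in dTAG replicate 1. Iqgap1, a scaffold that binds cadherin complexes, had 359.6 CPM in dTAG replicate 1, against 349 ± 31.6 CPM in the controls (SD, n = 3), a log2 fold change of -0.04 (SE 0.11). Lima1, an actin binder at cadherin junctions, had 193 CPM, against 189.6 ± 4.2 CPM. Of 29 tight junction genes, with a median of -0.086, the scaffold gene Tjp1 (ZO-1) had 155 CPM, against 171 ± 9.7 CPM, and its log2 fold change of -0.22 had a 95% interval of -0.49 to 0.04. The junctional adhesion molecule gene Jam2 had 169 CPM, against 163 ± 9.9 CPM. Of 9 desmosome genes, with a median of -0.020, the desmosomal cadherin gene Dsg2 had 168 CPM, against 161 ± 9.7 CPM, and Dsp, which encodes desmoplakin, had 108 CPM, against 110.4 ± 8.7 CPM. The genes named here, the most abundant of each list in the controls, lay close to their control means. Among less abundant cadherin genes, Cdh4 had 8.29 CPM in dTAG replicate 1, against 1.91 ± 0.40 CPM, and Dsc3 had 5.97 CPM, against 0.54 ± 0.39 CPM.

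The 14 tested genes of the list around Epcam, mostly cleaving enzymes and their inhibitors, had a median log2 fold change of -0.038 in dTAG replicate 1. Cd9, a tetraspanin, had 171 CPM in dTAG replicate 1, against 157 ± 7.0 CPM in the controls (SD, n = 3), and St14, a membrane serine protease, had 64.8 CPM, against 65.4 ± 3.9 CPM. For the control of β-catenin, the scaffold gene Apc had 223 CPM, against 232 ± 19.9 CPM, and the kinase gene Csnk1a1 had 158 CPM, against 169.9 ± 3.1 CPM. The list of Cdh1 repressors, mostly of the E-box kind but with Foxc2 and Gsc too, had 10 tested genes and a median of -0.13. In it Tcf3 had 78.1 CPM, against 82.5 ± 3.5 CPM, and Tcf4 had 25.6 CPM, against 30.4 ± 2.9 CPM. Among epithelial regulators, the ETS factor gene Elf3 had 142 CPM, against 176 ± 7.8 CPM, with a log2 fold change of -0.40 (95% interval -0.66 to -0.13, unadjusted p = 0.0048, edgeR adjusted p = 0.555), and Klf5 had 117 CPM, against 111 ± 5.9 CPM. Elf3 alone of these 14 named genes had an interval that left out 0, and it did not pass the adjusted threshold. Less abundant genes of the lists had such intervals too. Dsc3 (log2 fold change 3.36, 95% interval 1.35 to 5.38), Cdh4 (2.02, 0.69 to 3.36), Cldn2, Gsc and Zbtb33 lay higher, and Camsap3 and Cldn5 lower.

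**Figure D5:**
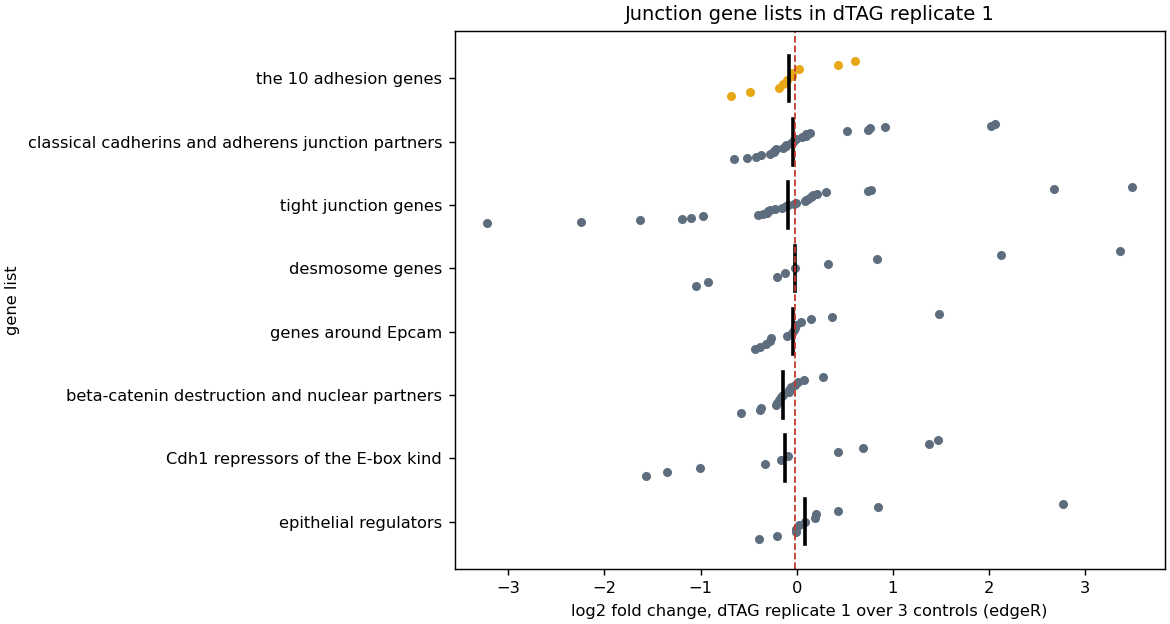
log2 fold change in dTAG replicate 1 over 3 controls (edgeR) of each tested gene of the 10 adhesion genes (yellow) and of 7 junction gene lists (grey); black bars are list medians and the dashed red line is the median of all tested genes, -0.016. List medians lie between -0.14 and 0.083.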

How the data were processed

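RNA-seq libraries of V6.5 cells were placed in groups, and table columns matched to samples, by their titles. The authors deposited raw counts per gene in 1 table of 27179 rows; the submitters' processing notes name STAR (2.7.2b), featureCounts, limma and edgeR, and mm10 as build, while the sources used here give neither annotation nor strand setting. Per the labels' protocols RNA was column-purified, and a stranded ribosome-depleted library is named beside a kit for messenger RNA.

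The 903 rows without a symbol, with 2.33%, 6.67% and 14.6% of counts in dTAG replicates 1, 2 and 3 and 2.20% to 2.37% in the controls, were left out. The remaining counts were scaled to CPM. A count of 0 allows up to 3 counts, or 0.232, 1.41 and 1.66 CPM in dTAG replicates 1, 2 and 3 and 0.192 to 0.213 CPM in the controls. No pair of libraries matched within sampling noise (chi-square per gene of at least 9.49).

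Tests used edgeR 4.0.16 in R 4.3.3 (quasi-likelihood, two-sided, TMM, filterByExpr with a minimum count of 10, group alone) with Benjamini-Hochberg adjustment over all tested genes. Ratios used exact permutation tests in SciPy 1.17.1. Fits were first run on simulated counts drawn from control means. Their spread beyond counting error (dispersion) was set lower than that fitted here. The fitted values were 0.424 over all 6 libraries and 0.105 for dTAG replicate 1 with the controls. That run checked the code and does not give the power in these libraries. The alternatives were other scalings, filters, DESeq2 1.42.0, limma-voom 3.58.1, a replicate block and leaving out each library. Levels are not compared between genes, since no transcript length was used. Promoters came from RefSeq (GRCm38.p6, the build of mm10), whose gene table matched all 10 genes.

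The adhesion genes, lists and tests were chosen with earlier results of these data known. Named genes are the 10 adhesion genes, per junction list the called genes or else the 2 most abundant in controls, and the 3 genes closest in pattern to each of Cdh1, Epcam, Ctnnb1 and Cldn6, leaving out Gm, LOC, Rik and -ps names.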

Additional observations from a re-analysis of the deposited data

How the results depend on the processing

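Over all 6 libraries the count of genes called, 0 with edgeR, was 1398 without a filter on low counts, 5086 with DESeq2 and 13 with a replicate block, and it ran from 0 to 13222 when a library was left out. The count of adhesion genes called was 0 in each of these settings but ran from 0 to 4 when a library was left out, with 4 without dTAG replicate 1. No pairing by replicate number was seen, since same-numbered libraries deviated with correlations of 0.052, -0.017 and 0.025, and other pairs with -0.049 to 0.029. As dTAG replicates 2 and 3 stood apart from the other libraries, such correlations cannot exclude a pairing. In dTAG replicate 1 against the controls the 16 calls became 41 without the filter and 5 with limma-voom, and 20 to 60 without a control (28 without control replicate 2 and 60 without control replicate 1). The adhesion genes had 0 calls under all of these. Of their single log2 fold changes, 122 of 130 alternative values over all 6 libraries and 75 of 80 in dTAG replicate 1 kept their direction and side of the threshold, 4 moved past it (all without dTAG replicate 1), and 9 changed sign. Of values that kept their sign over all 6 libraries, library totals gave -0.63 for Cdh1, 2.18 for Cdh2, -0.15 for Epcam and 3.22 for Cldn7, and limma-voom gave -1.88 for Cdh1, -2.03 for Ctnnb1 and -1.70 for Ctnnd1. With library totals Jup was 0.88, Cldn4 0.23 and Cldn6 0.49 over all 6 libraries, and Ctnnb1 0.032 and Ctnna1 0.038 in dTAG replicate 1. Where a gene needed 1 CPM in each library of a group, Jup was 0.025. For dTAG replicate 1, values without a control ran from -0.049 to 0.093 for Epcam, from -0.18 to 0.028 for Jup and from -0.083 to 0.0097 for Ctnna1, with a sign other than the main one for Epcam and Jup without control replicate 1 and for Ctnna1 without control replicate 3. The log2 ratios ran from 0.83 to 3.79 for Cdh2 to Cdh1, 0.55 to 2.60 for Jup to Ctnnb1 and -0.085 to 0.11 for Ctnna1 to Ctnnb1 when a library was left out (-0.046 without control replicate 1, -0.085 without dTAG replicate 2), and the cause was not tested. Depth limits the claudins and Cdh2, with 17 to 90 counts in dTAG replicates 2 and 3.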

Other observations

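Nectin4, which encodes an adherens junction protein of the nectin family, was chosen after its values were seen. It had 1.47, 486 and 2045 CPM in dTAG replicates 1, 2 and 3, against 0.421, 0.958 and 1.49 CPM in control replicates 1, 2 and 3. dTAG replicate 1 lay just under the highest control, on 19 counts. With 3706 counts it ranked 5 among all genes in dTAG replicate 3. Over all 6 libraries its log2 fold change was 8.38 (SE 2.0, edgeR adjusted p = 0.080), and in dTAG replicate 1 it was 0.52. The genes beside it did not reach such levels. Klhdc9 had 2.09, 7.98 and 32.0 CPM in the dTAG libraries, against 0.426 to 0.562 CPM in the controls, and Tstd1 had 1.08, 0.938 and 11.6 CPM, against 0.0639 to 0.351 CPM. Arhgap30 had 9.84, 24.4 and 56.3 CPM in the dTAG libraries, against 10.6 to 17.1 CPM in the controls, and Usf1 had 22.0, 33.8 and 65.7 CPM, against 18.7 to 22.6 CPM. Nectin4 made up most of the 3908 CPM that the adherens junction list summed to in dTAG replicate 3.

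Snai1, which encodes the E-box repressor Snail, was also picked after its values were seen, and had 8.52, 29.1 and 83.9 CPM in dTAG replicates 1, 2 and 3, against 2.60, 9.26 and 5.82 CPM in the controls. dTAG replicate 1 fell within the range of the controls.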
